A study of Mus musculus with 18 samples.

Results

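Mice in the D-V group were rotated in both directions with their vision occluded, a treatment that the labels name the Coriolis illusion, and their hippocampal RNA (5 libraries) was set against that of the Control group (3 libraries), labelled a blank control. The comparison covers every gene with enough counts to test, which was 14763 of the 22063 genes in the deposited table. These genes held 99.97% of all counts and were kept by a filter on counts that did not use the contrast. The series holds 18 libraries of mouse hippocampus in 4 groups. The other groups are S-V (5 libraries), rotated in a single direction with vision occluded, and D+V (5 libraries), rotated in both directions with vision free. The sources used here give no strain, sex, age or length of rotation, and do not state whether each library is a separate animal, so the spread between libraries may be partly technical. The series text says that the hippocampus was taken at once after rotation about several axes.

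The semicircular canals of the inner ear sense turning of the head. When the head turns about another axis during an ongoing rotation, the canals report a movement that did not take place, which is the Coriolis illusion, and with the eyes covered no visual cue is left to correct it. Vestibular signals reach the hippocampus by way of the brainstem, thalamus and neighbouring cortex and feed the place and head-direction codes of spatial memory. Tissue taken right after a stimulus can carry the transcripts of genes that neurons switch on within minutes of firing, and of genes that stress hormones or misfolded protein induce.

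Control libraries held 20.44 to 22.17 M estimated counts each and D-V libraries 15.39 to 21.43 M. The share of mitochondrially encoded transcripts was 8.08% ± 0.745 (SD, n = 3) for Control, and for D-V it was 8.46% ± 0.891 (SD, n = 5). Markers of hippocampal neurons were present in all 8 libraries: Fibcd1, a marker of CA1 pyramidal cells, was at 170 to 205 CPM (counts scaled to a common library size), and Prox1, a transcription factor of dentate granule cells, at 79.1 to 153 CPM. Libraries D-V 3 and D-V 4 stood apart in markers of the choroid plexus, the epithelium that makes cerebrospinal fluid, with summed levels of 15520 and 7589 CPM against 653.5 to 734.9 CPM in the other D-V libraries and 624.9 to 2012 CPM in Control. Libraries also differed in how GC-rich transcripts stood relative to the mean of all 18 libraries. Across genes, the difference of log2 CPM from that mean was set against GC content. The Spearman coefficient was 0.13 to 0.41 in Control and −0.12 to 0.31 in D-V. Of the other groups, S-V 2, S-V 4 and D+V 2 were also rich in these markers, at 6483, 6083 and 13610 CPM, and a fit without choroid-rich libraries leaves out all 5.

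No gene passed the test in D-V against Control. The quasi-likelihood test of edgeR called 0 of 14763 genes (0% of those tested) at an adjusted p under 0.05, and the smallest adjusted p was 0.54. At an unadjusted p under 0.05 there were 916 genes, 6.2% of those tested, of which 516 were higher in D-V (3.5%) and 400 lower (2.71%). DESeq2 called 3 genes and limma voom 0. With upper-quartile scaling in place of TMM the split turned to 299 higher of 941, so the balance of higher to lower genes depends on the scaling. In 756 genes (5.12%) the 5 D-V libraries and the 3 controls did not overlap, 406 with D-V above (2.75%) and 350 with D-V below (2.37%). A log2 difference had a median standard error of 0.123, and 76 genes lay past 2-fold at an unadjusted p under 0.05, 27 of them higher and 49 lower. All gene and list values that follow are therefore measured differences, on the log2 scale and in CPM, none of which passed the adjusted threshold in this fit, and the few calls made under other settings are named as such. The plot of fold change by level shows how the leading genes lie against all others.

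**Figure D1:**
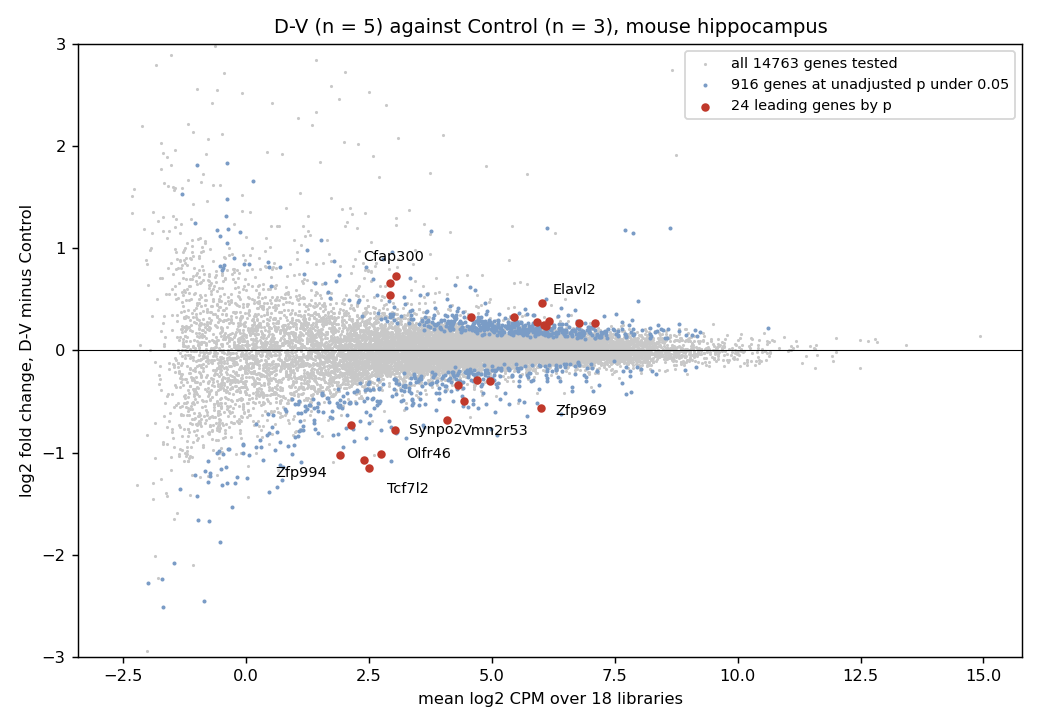
Log2 fold change of D-V (n = 5) minus Control (n = 3) against mean log2 CPM over the 18 libraries for the 14763 genes tested, with the 916 genes at an unadjusted p under 0.05 in blue and the 24 genes with the smallest p in red; 22 genes lie beyond the axis. The red points include Elavl2 at 0.46 above the line and Tcf7l2 at −1.15 below it, and no gene has an adjusted p under 0.54.

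The 12 higher genes with the smallest p had differences of 0.23 to 0.73, and Cfap300, Elavl2 and Cbx1 had the smallest p among them. Elavl2, which encodes the neuronal RNA-binding protein HuB, was at 44.5, 49.5 and 49 CPM in the controls and at 66.8, 75.7, 61.4, 60.8 and 63.6 CPM in D-V. Every D-V library lay above every control, and the difference was 0.46 (SE 0.10, adjusted p 0.595). Cfap300, a protein needed to assemble the dynein arms of motile cilia, had the largest fold of the 12 at 0.73 (SE 0.16). Its controls were at 7.88, 5.42 and 5.15 CPM and its D-V libraries at 10.3, 11.4, 12.6, 9.01 and 7.85 CPM, so that D-V 5 lay within the range of the controls. The ependymal and motile cilia list, to which Cfap300 does not belong, had 13 of 18 genes higher and 0 at an unadjusted p under 0.05.

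Cbx1, the heterochromatin protein HP1 beta, was at 19.5, 20.5 and 19 CPM in Control and at 26.4, 26.5, 22.1, 23.8 and 25.1 CPM in D-V, a difference of 0.33 (SE 0.08) with no overlap. Clint1, a clathrin adaptor of the trans-Golgi network, was higher by 0.28 (SE 0.07), and Cul3, the scaffold of a family of ubiquitin ligases, by 0.27 (SE 0.07). Otud6b, a deubiquitinase, was at 56.7 to 59.2 CPM in Control and 62.2 to 72.5 CPM in D-V. Arl5a, a small GTPase of the Golgi, was at 0.27, and Eif3j1, a subunit of a translation initiation factor whose gene model overlaps Spg11 on the other strand, at 0.32. Dpyd, which breaks down pyrimidines, was at 0.66 (SE 0.18) and Hpgd, which inactivates prostaglandins, at 0.54 (SE 0.14). The remaining 2 genes encode proteins of the endoplasmic reticulum and are described with that group. In 11 of these 12 genes all 5 D-V libraries lay above all 3 controls, as they did in 2.75% of all genes tested. The 12 were chosen by p on the same libraries, so the count lends them no support.

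Among the 12 lower genes with the smallest p were zinc finger genes, genes named as chemoreceptors and markers of the thalamus. Zfp994, a zinc finger gene, had the smallest p of all genes. Its controls were at 4.97, 5.64 and 5.78 CPM and its D-V libraries at 2.85, 2.72, 3.44, 2.44 and 1.94 CPM. No D-V library reached a control, and the difference was −1.03 (SE 0.19, adjusted p 0.54). Zfp969, also a zinc finger gene, was at 75.4 to 91.2 CPM in Control and 48 to 64.1 CPM in D-V, at −0.56 (SE 0.15).

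Genes named as chemoreceptors, which are best known from sensory neurons of the nose, formed the second set. Olfr1385 was at 24.7, 27.5 and 29.1 CPM in Control and at 20.2, 20.9, 19.9, 18.6 and 16 CPM in D-V, a difference of −0.50 (SE 0.10) with no overlap. Olfr46 was at −1.02 (SE 0.27) and Vmn2r53, named as a vomeronasal receptor, at −0.68 (SE 0.16). Over all genes named Olfr or Vmn, a set put together after these values were seen, 36 of 1464 had enough counts to test. Of these 27 were lower and 9 higher, with a median of −0.25 and 6 lower and 0 higher at an unadjusted p under 0.05, where all genes had 2.71% lower and 3.5% higher. The set holds the leading genes that prompted it and lends them no support. Over the 365 tested genes named Zfp, also gathered afterwards, the median was −0.04, with 35 lower and 2 higher at that threshold, Zfp994 and Zfp969 among them.

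Smc4, a core subunit of condensin that folds mitotic chromosomes, was at 4.75, 5.6 and 5.88 CPM in Control and 4.2, 2.67, 3.96, 2.96 and 2.53 CPM in D-V, at −0.73 (SE 0.19). Mindy1, a deubiquitinase whose gene model overlaps Prune1 and Anxa9 on the other strand, was at −0.29 (SE 0.07), and Nudt18, a hydrolase of oxidised nucleotides, at −0.30 (SE 0.08). Cd83, a membrane protein of the immunoglobulin family, was at 22.3, 23.1 and 23.5 CPM in Control and 16.9, 18.3, 16.4, 19.9 and 19 CPM in D-V, at −0.34 (SE 0.09). For all 12 lower genes the 5 D-V libraries lay below the 3 controls, as they did in 2.37% of all genes tested. These 12 were also chosen by p on the same libraries, so nothing is read from that count. Each of the 24 leading genes, higher or lower, kept an unadjusted p under 0.05 in all 8 fits with a library left out, after trends on GC and transcript length were taken out, and without the libraries rich in choroid plexus markers. They were chosen for a small p on these same libraries, so this was close to fixed in advance and lends them no support. Their adjusted p in the main edgeR fit was 0.54 to 0.62. Removing the trends on GC and length gave 2 calls, Zfp994 at −1.04 and Olfr1385 at −0.57, both at an adjusted p of 0.0262 in edgeR. The median GC content was 43.6% for genes higher at an unadjusted p under 0.05, 51.8% for those lower and 49.9% for all tested. With both trends taken out the list medians were 0.07 for ER stress, 0.05 for heat shock, −0.31 for thalamus, −0.24 for habenula, 0.88 for red blood cell and 0.12 for CA3 and CA2, each in the direction it has below.

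**Figure D2:**
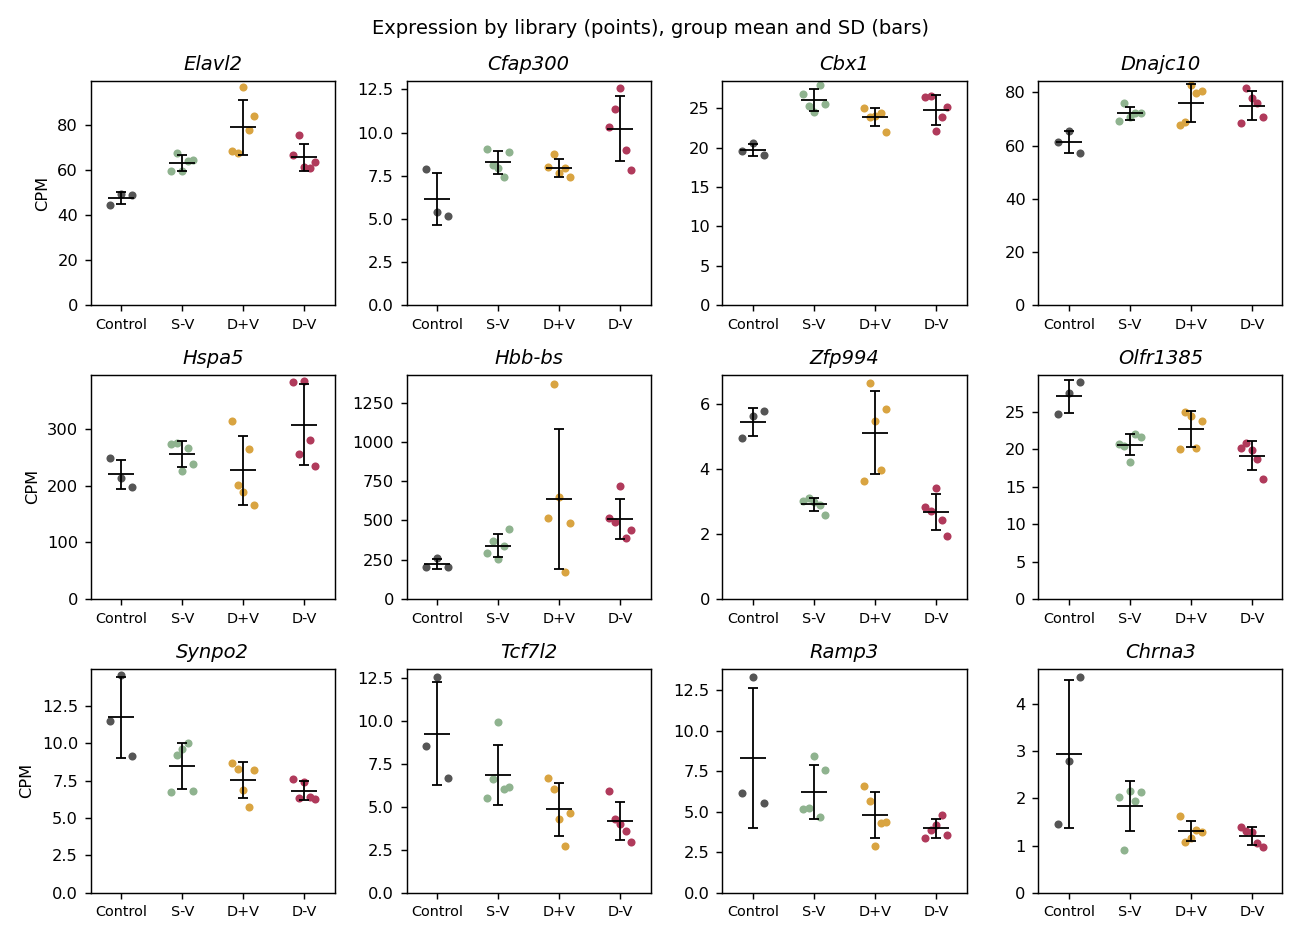
CPM by library (points), with group mean and SD (bars), of 12 genes in Control (n = 3), S-V, D+V and D-V (n = 5 each). In D-V, Elavl2 and Cbx1 lie above every control and Zfp994, Olfr1385, Synpo2, Tcf7l2 and Ramp3 below every control, while Zfp994 in D+V lies at or above the level of the controls in D+V 2, 3 and 5 and below every control in D+V 1 and 4.

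Genes of protein folding in the endoplasmic reticulum (ER) leaned higher in D-V. When unfolded protein builds up in the ER, the sensors IRE1, PERK and ATF6 raise chaperones, disulfide isomerases and the machinery that removes misfolded protein. Of the 50 genes of the ER stress and folding list, all tested, 35 were higher and 15 lower, with a median of 0.09 against 0.005 over all genes. At an unadjusted p under 0.05 there were 7 higher and 2 lower, against 3.5% and 2.71% of all genes. The lean lay with the chaperones, of which 12 of 13 were higher and 5 were at that threshold, at a median of 0.22. Disulfide isomerases had 6 of 8 higher at a median of 0.18. The sensors and their transcription factors had a median of 0.03 with 7 of 11 higher, and 4 of 10 genes of ER degradation were higher.

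Hspa5, which encodes BiP, the main chaperone of the ER lumen, was at 248, 213 and 197 CPM in Control and at 383, 256, 384, 281 and 234 CPM in D-V. Libraries D-V 1 and D-V 3 were the highest, D-V 5 lay among the controls, and the difference was 0.49 (SE 0.19), or 0.39 without either D-V 1 or D-V 3. Hspa13, an HSP70-like protein of microsomes, was at 35.6, 37.1 and 41.3 CPM in Control and at 48.9, 47.3, 46.1, 40.1 and 43 CPM in D-V, a difference of 0.25 (SE 0.07) with 4 of 5 D-V libraries above all controls. Dnajc3, a co-chaperone that also restrains PERK, was at 47.4 to 50.9 CPM in Control and 53.1 to 71.8 CPM in D-V, at 0.34 (SE 0.12). Dnajb9, a co-chaperone of BiP, was at 0.22 (SE 0.08) and Tmx3, a membrane-bound disulfide isomerase, at 0.22 (SE 0.07). In Dnajc3, Dnajb9 and Tmx3 every D-V library lay above every control. Of the 50 list genes, 5 lay above all controls in this way and 1 below, against 2.75% and 2.37% of all genes tested.

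Outside the list, 2 of the 12 leading higher genes act in the same compartment. Both were picked by p on the same libraries, so they lend the list no support. Dnajc10, a disulfide reductase that works with BiP, was at 61.5, 65.6 and 57.2 CPM in Control and 68.7, 81.6, 78.1, 76.2 and 70.8 CPM in D-V, at 0.29 (SE 0.08). Serp1, which protects newly made membrane proteins, was at 55.5 to 60.6 CPM in Control and 63.7 to 76.8 CPM in D-V, at 0.25 (SE 0.07), and its gene model overlaps Eif2a on the other strand. The 2 list members lower at an unadjusted p under 0.05 were P4hb, a disulfide isomerase, at −0.13 (SE 0.06) and Wfs1, an ER membrane protein that is also a marker of CA1 pyramidal cells, at −0.39 (SE 0.18). In P4hb every D-V library lay below every control. Hspa5, Herpud1, Canx, P4hb and Wfs1 were named after their values were seen. The count of higher members at that threshold ran from 5 to 9 over the fits with a library left out, with 5 when D-V 1 or D-V 3 was left out, and was 6 without the libraries rich in choroid plexus markers.

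The promoters of many ER chaperone genes hold the ER stress response element, at which ATF6 binds next to the factor NF-Y. Promoter sequence from RefSeq (GRCm38.p6), covering 250 bases before to 50 after the start of each gene, was found for 41 of the 50 list genes. The element was searched on both strands as CCAAT, 9 bases of any kind and CCACG, and its second form as ATTGG, 1 base of any kind and CCACG. The first was present in 9 of the 41 genes and in 39 of 32851 promoters in all (0.119%), the second in 2 of the 41 and in 12 promoters in all (0.0365%), and no list gene held both. The 4 promoters below are shown because they carry the element and their genes were higher in D-V at an unadjusted p under 0.05, with the element in capitals.
Hspa5, chr2:34771840-34772139, plus strand: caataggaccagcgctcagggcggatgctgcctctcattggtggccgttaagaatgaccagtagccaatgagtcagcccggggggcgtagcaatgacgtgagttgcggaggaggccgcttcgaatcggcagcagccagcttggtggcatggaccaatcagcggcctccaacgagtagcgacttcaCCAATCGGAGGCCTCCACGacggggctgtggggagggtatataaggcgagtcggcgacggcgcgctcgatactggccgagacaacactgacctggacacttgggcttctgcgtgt
Dnajc3, chr14:118937682-118937981, plus strand: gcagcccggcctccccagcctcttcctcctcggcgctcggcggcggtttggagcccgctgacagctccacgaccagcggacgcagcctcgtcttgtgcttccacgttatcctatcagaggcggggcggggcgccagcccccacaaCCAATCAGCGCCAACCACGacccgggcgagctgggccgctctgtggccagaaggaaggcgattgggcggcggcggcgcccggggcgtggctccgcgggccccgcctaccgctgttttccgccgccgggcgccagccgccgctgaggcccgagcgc
Herpud1, chr8:94386179-94386478, plus strand: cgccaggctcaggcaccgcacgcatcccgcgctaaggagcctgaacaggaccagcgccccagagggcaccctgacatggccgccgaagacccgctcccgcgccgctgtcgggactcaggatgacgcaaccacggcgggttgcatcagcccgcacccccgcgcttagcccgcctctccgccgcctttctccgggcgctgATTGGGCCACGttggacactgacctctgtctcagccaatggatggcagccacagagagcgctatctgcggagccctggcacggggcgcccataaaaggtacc
Canx, chr11:50325624-50325923, minus strand: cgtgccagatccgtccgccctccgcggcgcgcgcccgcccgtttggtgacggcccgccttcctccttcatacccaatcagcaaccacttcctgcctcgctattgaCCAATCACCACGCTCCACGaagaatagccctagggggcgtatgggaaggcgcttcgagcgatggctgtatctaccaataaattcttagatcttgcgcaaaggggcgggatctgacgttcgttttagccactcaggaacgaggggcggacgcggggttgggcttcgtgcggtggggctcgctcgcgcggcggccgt

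The element begins 65 bases before the start site in Hspa5, 105 bases before it in Dnajc3 and 52 bases before it in Herpud1, which encodes a membrane protein of ER degradation and was at 0.17 (SE 0.08). In Canx, which encodes the membrane-bound lectin chaperone calnexin and was at 0.14 (SE 0.06), it begins 145 bases before the start site. Of the 11 list genes with either form, 10 were higher in D-V, 4 of them at an unadjusted p under 0.05, with a median of 0.19. Of the 30 without, 17 were higher, with a median of 0.02, and 1 higher (Dnajb9) and 2 lower (P4hb and Wfs1) were at that threshold. Over all genes tested, 27 had either form in the promoter. Of these 20 were higher (74.1%, against 51.1% of the 11475 tested genes with a promoter sequence) at a median of 0.11. The 16 of them that are not in the ER list had 10 higher and a median of 0.03. A match of letters is a description of the promoter and does not show that a factor was bound.

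**Figure D3:**
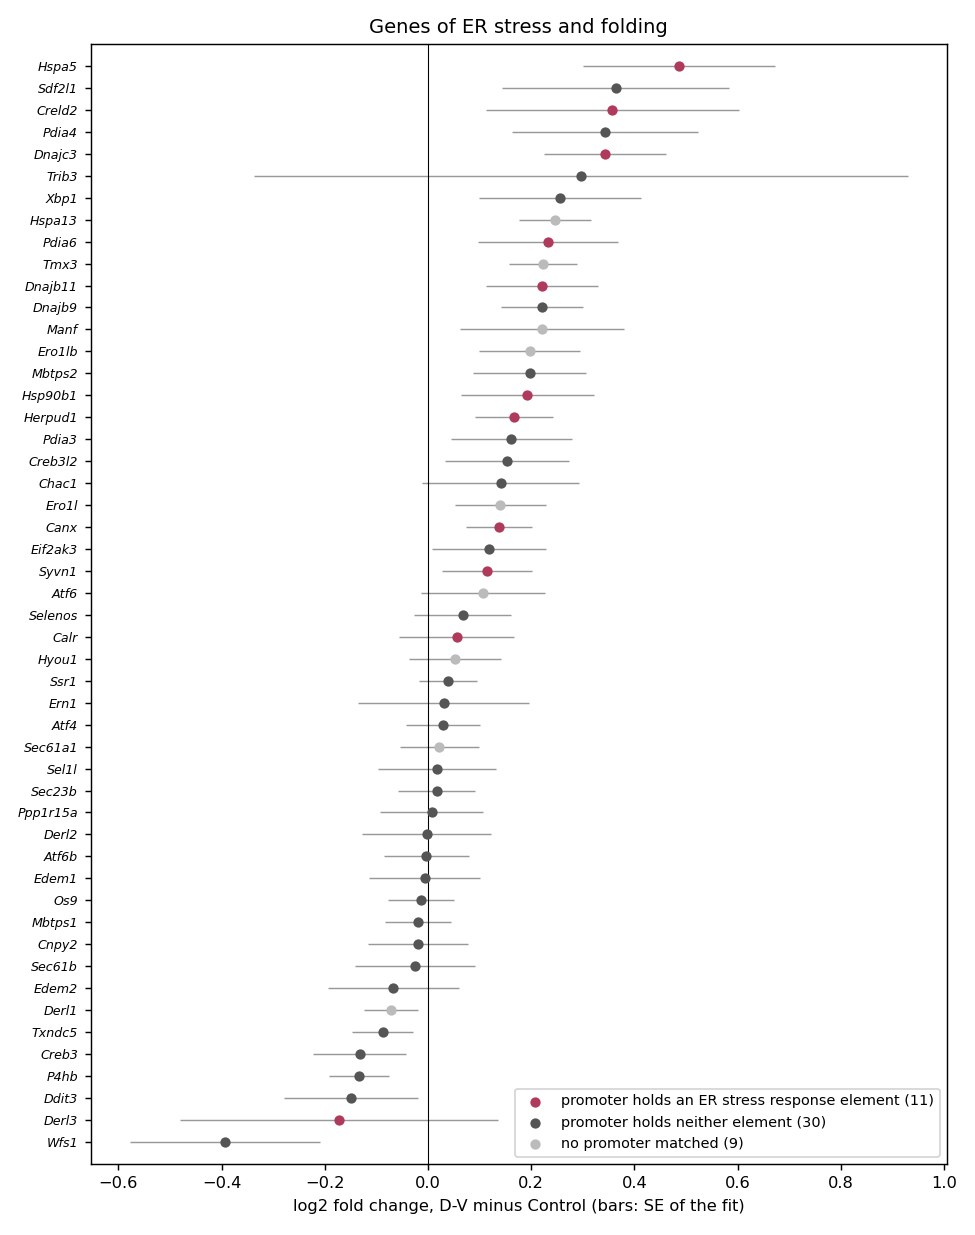
Log2 fold change of D-V (n = 5) minus Control (n = 3) with the standard error of the fit for the 50 genes of ER stress and folding, coloured by whether the promoter holds an ER stress response element (11), holds neither form (30) or was not matched (9). Genes with the element lie between −0.17 and 0.49, with 10 of 11 to the right of 0.

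The heat shock list, which is made up mostly of chaperones of the cytosol that heat shock factor induces, had a median close to that of the ER list, and the difference between the lists was not tested. Of the 32 heat shock and chaperone genes 24 were higher, with a median of 0.08, and 5 were higher (15.6%) and 0 lower at an unadjusted p under 0.05. Dnajb6, a co-chaperone that holds back aggregation, was at 153, 169 and 162 CPM in Control and 182, 190, 182, 198 and 177 CPM in D-V, at 0.20 (SE 0.06) with no overlap. Hspa4, a nucleotide exchange factor for HSP70, was at 0.18 (SE 0.06), and Dnaja1, an HSP40 partner of HSP70 whose model overlaps Smu1 on the other strand, at 0.22 (SE 0.08). Hspd1, the mitochondrial chaperonin, was at 0.13 (SE 0.06), and it shares a locus with Hspe1 on the other strand. The count of higher members at that threshold was 3 with upper-quartile scaling and also 3 without Control 3, without D-V 1 or without D-V 4.

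Markers of the thalamus were lower in D-V, and as the tissue was bulk RNA, fewer cells of a type and less RNA per cell cannot be told apart. Of the 32 thalamus markers tested 26 were lower and 6 higher, with a median of −0.27. At an unadjusted p under 0.05, 11 were lower (34.4%, against 2.71% of all genes) and 0 higher. The list was picked for description by this share, so the share lends it no support. Tcf7l2, a Wnt pathway transcription factor that defines thalamic neurons, was at 8.54, 12.6 and 6.71 CPM in Control and at 5.92, 4.27, 4.02, 3.6 and 2.98 CPM in D-V, at −1.15 (SE 0.27). Synpo2, an actin-binding protein, was at 11.5, 14.5 and 9.14 CPM in Control and 7.6, 6.36, 7.4, 6.39 and 6.29 CPM in D-V, at −0.78 (SE 0.17). Ramp3, which pairs with receptors of the calcitonin family, was at 6.16, 13.3 and 5.54 CPM in Control and 3.4, 3.88, 4.22, 4.82 and 3.57 CPM in D-V, at −1.07 (SE 0.28). In all 3 genes no D-V library reached a control, as in 2.37% of all genes tested, and Control 2 was the highest of all. These 3 are among the genes chosen by p on the same libraries.

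Gbx2, a homeobox gene of the developing thalamus, was at 0.968, 1.17 and 0.292 CPM in Control, at 0.0466, 0.097 and 0.0581 CPM in D-V 1, D-V 2 and D-V 4, and at 0 in D-V 3 and D-V 5. It passed the filter on the counts of other libraries, and no fold is given for it at this depth. Its place among the lower members at an unadjusted p under 0.05 therefore lends the list no support. Slc17a6, the vesicular glutamate carrier VGLUT2, was at 13.8, 17.9 and 11.7 CPM in Control and 12.4, 7.28, 10.8, 5.11 and 7.91 CPM in D-V, at −0.73 (SE 0.24), and D-V 1 lay within the range of the controls. The transcription factors of the list had 7 of 8 lower at a median of −0.66, and the receptors and channels 4 of 7 lower at −0.16. Summed over the list, which holds genes that hippocampal neurons also express, levels were 1126 to 1209 CPM in Control and 1022 to 1135 CPM in D-V. The median was −0.21 without Control 2, −0.45 without Control 3 and −0.17 where a CPM of at least 1 was asked of at least 5 libraries. Without the libraries rich in choroid plexus markers it was −0.32, with 11 lower and 1 higher at that threshold. Whether the samples held different amounts of adjoining tissue was not tested.

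The habenula, which lies beside the thalamus below the hippocampus, gave a like pattern at low levels. Of its 19 markers tested 16 were lower, at a median of −0.24, with 5 lower (26.3%) and 0 higher at an unadjusted p under 0.05. This list was likewise picked by its share, which lends it no support. All 11 transmitter and receptor genes were lower. Chrna3, a nicotinic acetylcholine receptor subunit of habenular neurons, was at 1.45, 2.8 and 4.57 CPM in Control and at 1.4, 1.31, 1.3, 1.05 and 0.973 CPM in D-V, at −1.27 (SE 0.31). Chrnb3, a partner subunit, was at 0.352, 0.677 and 2.09 CPM in Control and 0.195 to 0.42 CPM in D-V, and Gpr151, an orphan receptor of habenular axons, was at −0.95 (SE 0.33). Among the Control and D-V libraries, Control 3 was the highest for these 3 genes. Without Control 3, 2 members were lower and 1 higher at that threshold, with a median of −0.13. Chrnb3 and a further subunit, Chrnb4, are among the 5 lower members. Both passed the filter mainly on the counts of libraries outside D-V, so their place in the count lends it no support. Pou4f1, which defines habenular neurons, had too few counts to test. Among members at higher levels, Lrrc55, an auxiliary subunit of BK potassium channels, was at 15.1, 17.2 and 26.1 CPM in Control and 13.8 to 16.2 CPM in D-V, at −0.35 (SE 0.16), and the groups overlapped. Necab1, a calcium-binding protein, was at 0.22 (SE 0.17), Htr5b, a serotonin receptor, at −0.24 (SE 0.18) and Spon1, a secreted matrix protein, at −0.12 (SE 0.09). Levels summed over the list were 466.8 to 491.8 CPM in Control and 418.9 to 484.6 CPM in D-V.

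The acetylcholine receptor list shares subunits with the habenula list. Of the 15 genes tested 3 were lower (20%) and 0 higher at an unadjusted p under 0.05, and they were Chrna3, Chrnb3 and Chrnb4. Chrnb3 passed the filter on the counts of libraries outside D-V, and Chrnb4 did so apart from D-V 3. Their place in this count therefore lends it no support. Chrnb4 was at 0.484, 3.07 and 2.04 CPM in Control and 0.097 to 1.62 CPM in D-V, and the groups overlapped. Its difference at these low levels was −1.88 (SE 0.69), and −2.91 to −1.31 over the fits with a library left out. The 5 muscarinic receptors, which carry much of the cholinergic signal in the hippocampus, had a median of 0.03 with 0 at that threshold. Chrnb2, the most widespread nicotinic beta subunit of the brain, was at 77.4 to 89.8 CPM in Control and 72 to 82.7 CPM in D-V, at −0.08 (SE 0.09). Chrna4, its usual alpha partner, was at −0.10 (SE 0.12), Chrna7, the subunit of homomeric nicotinic receptors, at 0.16 (SE 0.29) and Chrm1, the main muscarinic receptor of pyramidal neurons, at −0.07 (SE 0.10).

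Neocortex and striatum, other neighbours of the hippocampus, showed medians of −0.01 (16 genes tested, 2 lower and 0 higher at an unadjusted p under 0.05) and −0.16 (17 genes, 1 lower and 0 higher). Of the neocortex list, Foxp2, a transcription factor of deep cortical layers and of thalamus, was at 1.56 to 3.61 CPM in Control and 0.389 to 1.49 CPM in D-V, and Ctxn3, a small membrane protein, was at −0.80 (SE 0.74). Stard8 was at −0.30 (SE 0.14), Scube1, a secreted protein, at 0.27 (SE 0.17) and Fezf2, a transcription factor of projection neurons, at 0.22 (SE 0.17).

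**Figure D4:**
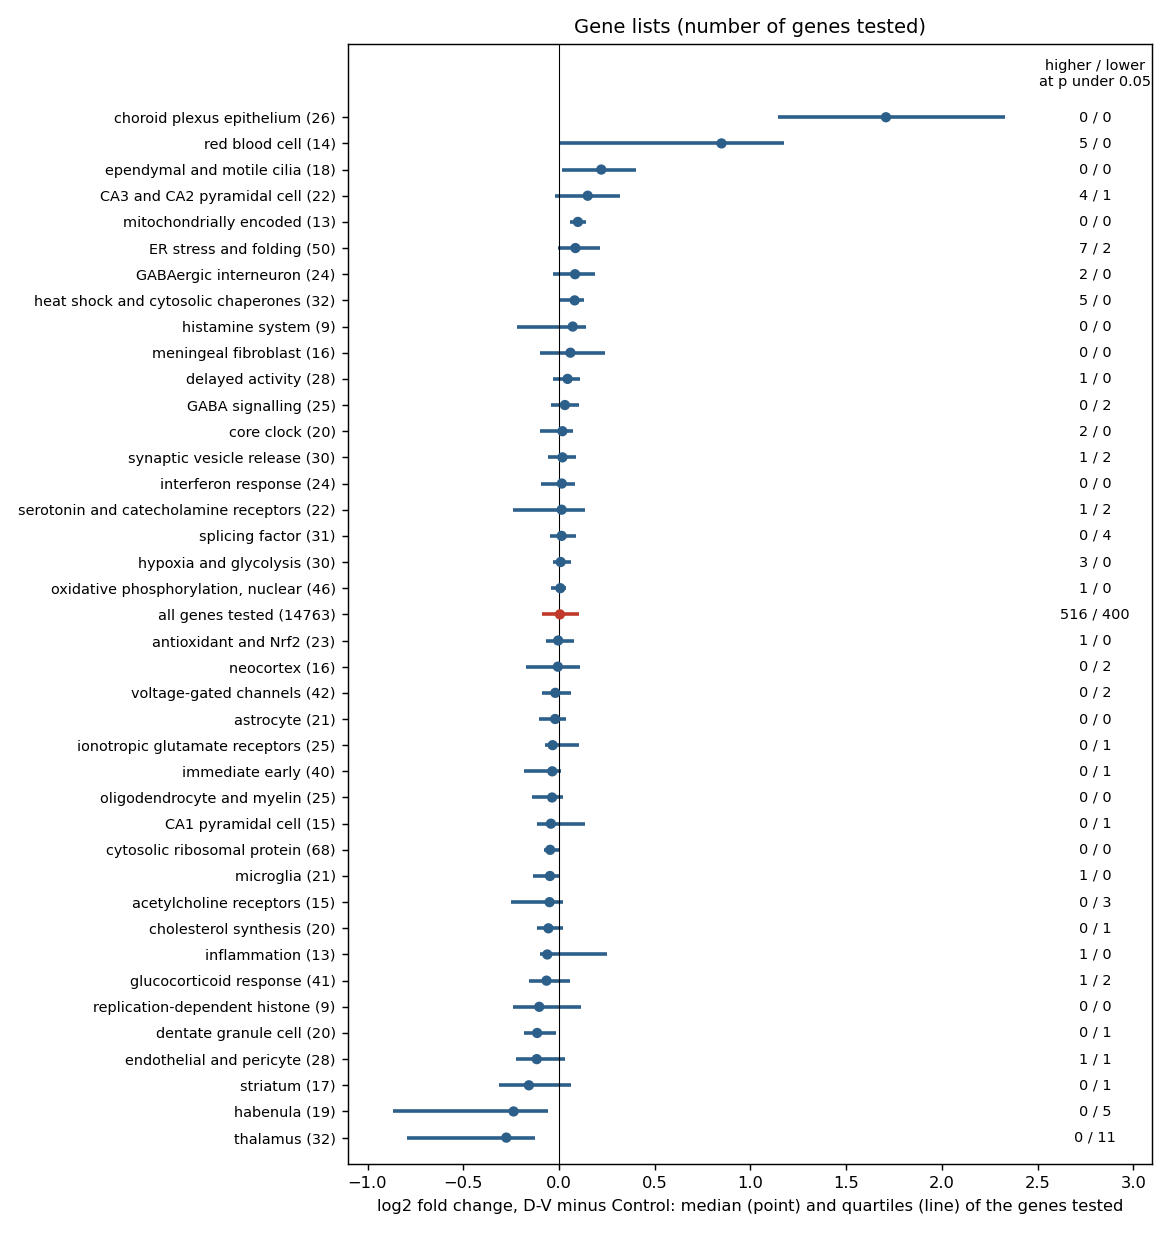
Median (point) and quartiles (line) of the log2 fold change, D-V minus Control, over the tested genes of each list, with all 14763 genes in red and the numbers higher and lower at an unadjusted p under 0.05 at the right. The red blood cell and choroid plexus lists lie farthest to the right and the thalamus and habenula lists farthest to the left, and 0 genes of any list passed the adjusted threshold.

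Globin transcripts, which come from red blood cells in the vessels, were more than 2-fold higher in D-V. Hbb-bs, an adult beta globin, was at 206, 261 and 203 CPM in Control and at 516, 488, 722, 385 and 442 CPM in D-V, at 1.19 (SE 0.40). Hba-a1, an alpha globin, was at 112, 159 and 104 CPM in Control and 277, 271, 406, 213 and 245 CPM in D-V, at 1.18 (SE 0.41). All 5 D-V libraries lay above all controls in both genes and in Hbb-bt (1.19, SE 0.43), Hba-a2 (1.15, SE 0.42) and Alas2 (1.17, SE 0.44), the enzyme that starts haem synthesis in red cells. The globin pairs are near-identical copies, so reads may be split between them in an uncertain way, and Alas2 overlaps Apex2 on the other strand. Of the 14 genes tested 5 were higher (35.7%, against 3.5% of all genes) and 0 lower at an unadjusted p under 0.05, and those 5 are the ones named. A position of all D-V libraries above all controls was found in 2.75% of all genes tested. The list was picked by its share at that threshold, so the share lends it no support. The list summed to 1055 to 1260 CPM in Control and 1577 to 2343 CPM in D-V, with no overlap, and the 5 genes stayed at that threshold without the libraries rich in choroid plexus markers. Endothelial and pericyte markers, which track the vessel wall, had a median of −0.12 with 1 higher and 1 lower of 28.

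Choroid plexus markers had the largest median of any list at 1.71, with 26 of 26 genes higher and 0 at an unadjusted p under 0.05. The median was 0.70 without D-V 3 and −0.81 without choroid-rich libraries, with 3 lower and 0 higher at that threshold. Ttr, the thyroid hormone carrier that the choroid plexus secretes, was at 317, 990 and 49.3 CPM in Control and at 50, 140, 10000, 4877 and 66.7 CPM in D-V 1 to 5. D-V 3 and D-V 4 stood above all 3 controls, and the other 3 D-V libraries lay within the range of the controls. Fam161a, a ciliary protein that was among the 6 higher genes with the largest fold (1.08, SE 0.47, and 0.16 without choroid-rich libraries), was at 7.66 and 5.75 CPM in D-V 3 and D-V 4 and at 1.82 to 2.33 CPM in the other D-V libraries, against 1.46 to 2.29 CPM in Control. The plot of summed marker levels by library shows these 2 libraries of D-V apart, with S-V 2, S-V 4 and D+V 2 of the other groups.

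**Figure D5:**
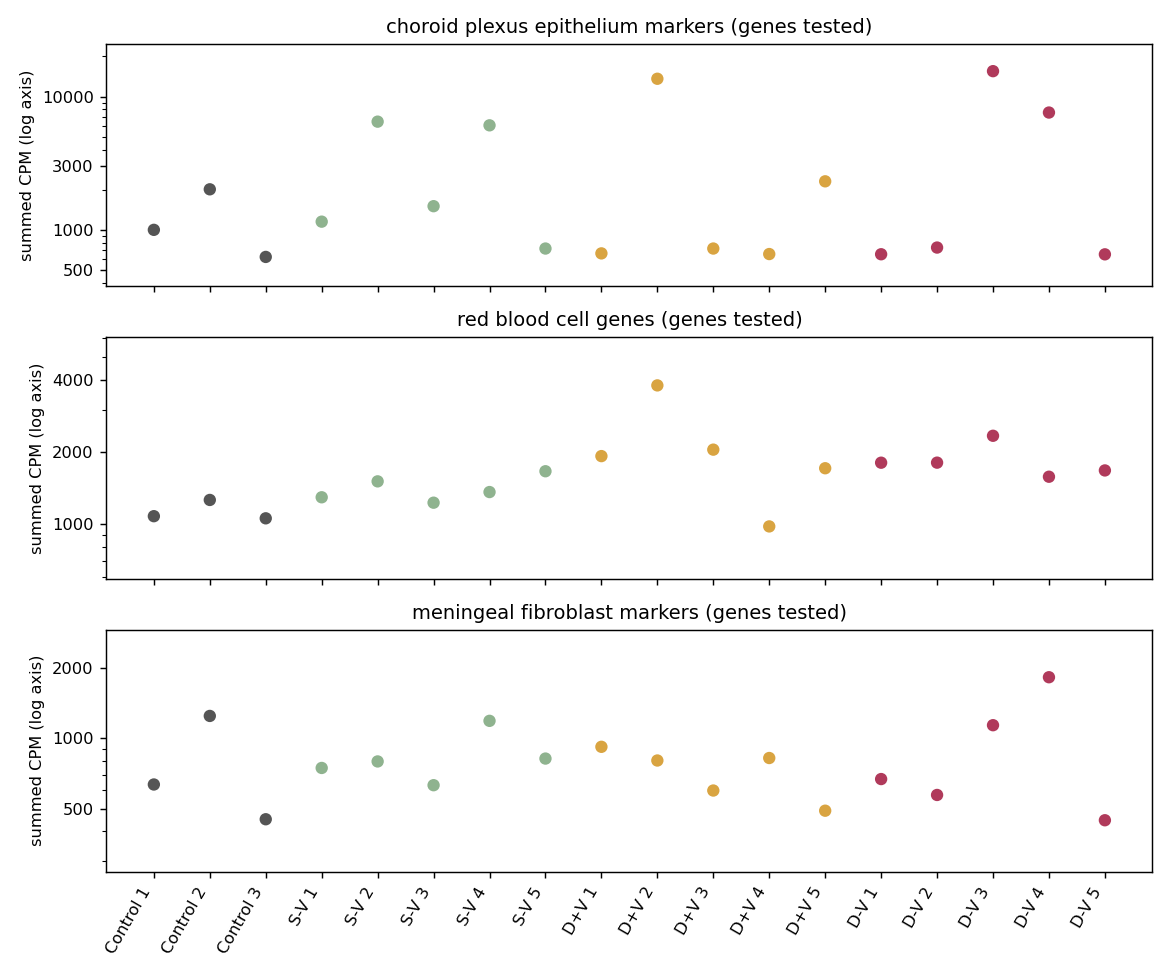
Summed CPM (log axes) of the tested genes of the choroid plexus, red blood cell and meningeal fibroblast lists in each of the 18 libraries, coloured by group. D-V 3 and D-V 4 are at 15520 and 7589 CPM for choroid plexus and S-V 2, S-V 4 and D+V 2 at 6083 to 13610 CPM, and all D-V libraries lie at 1577 to 2343 CPM for red blood cell genes against 1055 to 1260 CPM in Control.

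Among hippocampal cell types, markers of CA3 pyramidal neurons, which receive the mossy fibres and form the recurrent network of the hippocampus, leaned higher. Of 22 CA3 and CA2 markers tested 15 were higher, with a median of 0.15, and 4 were higher (against 3.5% of all genes) and 1 lower at an unadjusted p under 0.05. The 4 were all CA3 markers, of which 11 of 13 were higher. Of the 9 CA2 markers 4 were higher and 5 lower, at a median of −0.03, and the 1 lower gene at that threshold was a CA2 marker. The 4 CA3 genes were Elavl2, already given, Nectin3, Npy2r and Socs2. Nectin3, a cell adhesion protein, was at 24.7, 33.2 and 29.7 CPM in Control and 38, 41.2, 33.3, 36.5 and 37.1 CPM in D-V, at 0.35 (SE 0.10) with no overlap. Npy2r, a presynaptic receptor for neuropeptide Y, was at 0.35 (SE 0.13) and Socs2, a feedback inhibitor of cytokine signalling, at 0.39 (SE 0.15). Summed over the CA3 and CA2 list, levels were 2225 to 2490 CPM in Control and 2330 to 2651 CPM in D-V, and the groups overlapped. CA1 markers had a median of −0.04 (15 genes, 0 higher and 1 lower at that threshold) and dentate granule cell markers one of −0.11 (20 genes, 0 higher and 1 lower). Astrocyte, microglia and myelin lists had medians of −0.02, −0.05 and −0.04, with 0, 1 and 0 genes at that threshold.

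Of the genes that neurons switch on after firing, more were lower than higher in D-V. Of the 40 immediate early genes tested 14 were higher and 26 lower, with a median of −0.03, and 0 were higher and 1 lower (2.5%) at an unadjusted p under 0.05. Those counts moved with single libraries, to 5 lower without Control 1, 4 lower without D-V 5 and 3 higher without Control 3, and limma voom had 3 higher and 6 lower. Fos, an AP-1 subunit, was at 15.1, 17.6 and 16.2 CPM in Control and 10.2, 11.8, 13.7, 9.99 and 22.2 CPM in D-V. Arc, a regulator of synaptic strength, was at 116, 163 and 220 CPM in Control and 131, 131, 144, 122 and 224 CPM in D-V. Library D-V 5 was the highest of D-V for both, while the other 4 lay below all controls in Fos and within their range in Arc. Egr1 was at −0.21 (SE 0.14) and Npas4, a factor induced by calcium entry, at −0.20 (SE 0.22). Egr2 was the member at the threshold, with 3.17 to 3.97 CPM in Control and 1.86 to 2.8 CPM in D-V, at −0.69 (SE 0.30). Klf2, Ccn1 and Klf10 were at −0.40, −0.42 and 0.31, with ranges over the fits with a library left out of −0.57 to −0.07, −0.53 to −0.28 and 0.17 to 0.57. Bdnf, a growth factor that activity induces later, was at 23.4 to 40.4 CPM in Control and 30.7 to 39.3 CPM in D-V.

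Genes that the glucocorticoid receptor induces also leaned lower. Of the 41 tested 15 were higher and 26 lower, with a median of −0.07, and 1 was higher and 2 lower at an unadjusted p under 0.05 (7.32%), or 4 lower without Control 1 and 0 lower without Control 2 or D-V 1. All 12 members that act in metabolism were lower, at a median of −0.13 with 0 at that threshold, while 12 of 19 in the mixed remainder of the list were higher. Fkbp5, a co-chaperone that restrains the receptor, was at 50.9 to 69.7 CPM in Control and 59.3 to 68.8 CPM in D-V. Sgk1, a kinase, was at 63.4 to 92.7 CPM in Control and 64.5 to 90.6 CPM in D-V, and Tsc22d3, which encodes GILZ, at 47.5 to 56.4 and 47.9 to 52.2 CPM. The groups overlapped in these 3 genes. Klf15, a transcription factor of metabolism, was at 16.7 to 18.5 CPM in Control and 18.8 to 24.2 CPM in D-V, at 0.28 (SE 0.09), and Map3k6, a stress-activated kinase, was at −0.51 (SE 0.20). Arl4d, a small GTPase, was at −0.42 (SE 0.18) and Angptl4, a lipase inhibitor, at −0.55 (SE 0.29).

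Histamine, which drugs against motion sickness block at the H1 receptor, was represented by 9 tested genes, with 0 at an unadjusted p under 0.05 and a median of 0.07. The median was −0.02 without Control 2 or Control 3 and −0.07 without choroid-rich libraries. Hrh1 was at 3.3 to 6.34 CPM in Control and 4.02 to 5.97 CPM in D-V, and Hrh3, the autoreceptor, at 39.5 to 63.3 and 40.5 to 66.9 CPM. Hrh2, the receptor that couples to cyclic AMP, was at 0.13 (SE 0.18). Hnmt, the enzyme that inactivates histamine in brain, was at 0.17 (SE 0.11). Slc18a2, the vesicular monoamine carrier, was at −0.31 (SE 0.21). Slc29a4, a monoamine carrier, was at 0.33 (SE 0.32) with its highest values in D-V 3 and D-V 4, and at −0.20 without the libraries rich in choroid plexus markers. Slc22a3, another carrier, stayed near 1 CPM or below.

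Receptors for serotonin and catecholamines had a median of 0.01 over 22 genes, with 1 higher and 2 lower at an unadjusted p under 0.05 (13.6%). Htr3a, the serotonin-gated channel of a class of interneurons, was at 11.4, 11.1 and 8.41 CPM in Control and 15.1, 16.4, 11.6, 17 and 15.4 CPM in D-V, at 0.55 (SE 0.16) with no overlap. Htr2a, a G protein-coupled serotonin receptor, was at 0.33 (SE 0.17). The dopamine receptors of the D1 class were lower, with Drd5 at −0.33 (SE 0.13) and Drd1 at −0.45 (SE 0.19), the latter at 4.42 to 5.37 CPM in Control and 3.14 to 4.02 CPM in D-V.

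Splicing factors had 4 of 31 genes lower (12.9%) and 0 higher at an unadjusted p under 0.05, where all genes had 2.71% lower, at a median of 0.01. Without Control 2 the count was 1 lower, without D-V 1 2 lower, and without Control 3 2 lower and 2 higher. Pnisr, a protein of nuclear speckles, was at 59.5, 72.9 and 84.2 CPM in Control and 57.9, 58.4, 57.4, 50.4 and 54.3 CPM in D-V, at −0.37 (SE 0.12). Luc7l3, a component of the U1 complex, was at −0.27 (SE 0.10), Srsf5, an SR protein, at −0.25 (SE 0.11) and Clasrp, a binding partner of splicing kinases, at −0.21 (SE 0.09). Among the 6 lower genes with the largest fold were also Cep290, a protein of the ciliary transition zone, at −0.94 (SE 0.45), and Ret, a receptor for glial growth factors, at −0.86 (SE 0.33), with 3 of 5 D-V libraries below all controls for Ret. Control 1 was the highest library for Ret at 14.6 CPM, and without it the difference was −0.35.

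Whether D-V differed from the other rotated groups was tested in the same fit. Against S-V, which was also rotated without vision, edgeR called 0 of 14763 genes (0%), with a smallest adjusted p of 0.59 and 950 genes (6.44%) at an unadjusted p under 0.05, 505 higher (3.42%) and 445 lower (3.01%). DESeq2 called 11 genes in that comparison. Against D+V, rotated in both directions with vision free, edgeR called 0 (0%), with a smallest adjusted p of 0.0623 and 2023 genes (13.7%) at an unadjusted p under 0.05, 754 higher (5.11%) and 1269 lower (8.6%). That count depended on single D+V libraries, since 1230 genes were called without D+V 1, 70 without D+V 4 and 0 without any other single library. DESeq2 called 277 genes there and limma voom 819.

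The 3 rotated groups share the same controls, so their differences from Control are given side by side only. Of the 24 leading genes, 4 were at an unadjusted p under 0.05 in D-V against S-V (all genes, 6.44%) and 9 in D-V against D+V (all genes, 13.7%). These genes were chosen on the same D-V libraries, so nothing is read from those counts. With D-V given first, S-V next and D+V last, Elavl2 was at 0.46, 0.41 and 0.73, and Cbx1 at 0.33, 0.40 and 0.28. Cfap300 was at 0.73, 0.43 and 0.37, with D-V above S-V by 0.30 and above D+V by 0.36 (adjusted p 0.234 in edgeR for the latter). Tcf7l2 was at −1.15, −0.44 and −0.93, and D-V minus S-V was −0.71. Zfp994 was at −1.03, −0.90 and −0.09, and D-V minus D+V was −0.93 with an adjusted p of 0.0901 in edgeR. Olfr46 was at −1.02, −0.99 and −0.05, Smc4 at −0.73, −0.47 and 0.03 and Zfp969 at −0.56, −0.60 and −0.07. The D+V values near 0 of Olfr46, Zfp994 and Zfp969 average unlike libraries. Olfr46 was at 5.67 and 6.35 CPM in D+V 1 and 4 and at 13.2, 10.3 and 13.2 CPM in D+V 2, 3 and 5. Zfp994 was at 3.65 and 3.98 CPM in D+V 1 and 4 and at 6.68, 5.50 and 5.87 CPM in the others, and Zfp969 at 63.9 and 63.7 CPM against 90.9, 90.7 and 79 CPM.

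Medians of the gene lists are given in the same terms, and the groups differed in some lists and were close in others. In that order the median of the ER stress list was 0.09, 0.05 and −0.04, and D-V against D+V had a median of 0.11 with 17 of 50 members at an unadjusted p under 0.05, where all genes had 13.7%. Of its higher members named above, Hspa5 was at 0.49, 0.22 and 0.05, Herpud1 at 0.17, 0.02 and −0.01 and Dnajc3 at 0.34, 0.25 and 0.28. The D+V value of Hspa5 averages unlike libraries. It was at 314 and 265 CPM in D+V 1 and 4 and at 202, 188 and 166 CPM in D+V 2, 3 and 5. Summed over the ER list, D+V 1 and 4 were at 4138 and 4077 CPM, and D+V 2, 3 and 5 at 3801, 3819 and 3537 CPM. The other higher members were as high or higher in another rotated group. Hspa13 was at 0.25, 0.29 and 0.43, Tmx3 at 0.22, 0.32 and 0.43, Dnajb9 at 0.22, 0.27 and 0.26 and Canx at 0.14, 0.14 and 0.20. Outside the list, Dnajc10 was at 0.29, 0.23 and 0.30 and Serp1 at 0.25, 0.31 and 0.20. Red blood cell genes had medians of 0.85, 0.26 and 1.06, and thalamus markers −0.27, −0.14 and −0.10. The habenula list was at −0.24, −0.26 and −0.21, heat shock at 0.08, 0.10 and 0.02 and acetylcholine receptors at −0.05, −0.09 and −0.18. CA3 and CA2 markers had medians of 0.15, 0.08 and 0.04. Among them Nectin3 was at 0.35, 0.20 and 0.465, Npy2r at 0.35, 0.22 and 0.19 and Socs2 at 0.39, 0.20 and 0.42. For the glucocorticoid list the medians were −0.07, 0.20 and −0.01, and 15 of 41 members were at that threshold in D-V against S-V, where all genes had 6.44%. The direct comparison had a median of −0.24, with Sgk1 at −0.56 and Tsc22d3 at −0.36.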

How the data were processed

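RNA was measured in 18 libraries of mouse hippocampus, 3 of Control and 5 each of S-V, D+V and D-V. Per the labels' protocols, RNA with poly(A) tails was enriched with oligo(dT) from total RNA, made into libraries with an NEBNext Ultra kit, amplified by PCR without molecular identifiers being named, and sequenced on an Illumina NovaSeq instrument. The authors deposited estimated counts for each gene, in 18 columns named for the libraries (per the file headers), and 7.35% of them were not whole numbers. The submitters' processing notes name HISAT2, StringTie 1.3.1, DESeq2 and Bowtie2 2.2.8 without saying what each did. Build, annotation and strand setting of the counts are likewise not given in the sources used, so reads of overlapping genes could not be assigned with certainty. Overlaps were read from GENCODE M21 and promoters from the RefSeq table.

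Estimated counts were rounded to whole numbers, and genes were kept by filterByExpr. All 18 libraries entered a single fit of 4 group means with TMM scaling, and the test was the quasi-likelihood one of edgeR 4.0.16 (R 4.3.3). P-values were adjusted by Benjamini-Hochberg over all 14763 genes tested, with a call at an adjusted p under 0.05. CPM values were scaled by TMM. Common biological variation was 15.4%. Counts in 90 genes without a symbol were 0.0562% of the total. The script was tested on simulated data. No 2 libraries held identical values.

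Named genes were, at a mean log2 CPM of at least 1, the 12 higher and 12 lower by p, the 6 higher and 6 lower by fold at an unadjusted p under 0.05, the 4 members with the smallest p of each of 13 lists described, and 10 genes named in any case. Outside the rule, 7 list members below that level (Gbx2, Chrna3, Chrnb3, Chrnb4, Gpr151, Foxp2 and Slc22a3) and 5 ER genes were given after their values were seen. The described lists were the 10 with the largest share at that threshold and at least 8 genes tested, plus the ER stress, immediate early, glucocorticoid and histamine lists where not already among them. The 40 lists (994 of 1025 entries tested, 7 symbols not in the table) and the members were chosen with earlier results of these data known. Replicate numbers did not pair libraries in the labels. Alternatives were DESeq2 1.42.0, limma voom 3.58.1 with quality weights, other scalings and filters, a surrogate variable (sva 3.50.0), removal of trends on GC content and length, the replicate number as a block, and leaving out libraries.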

Additional observations from a re-analysis of the deposited data

Results flagged for a closer look

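Of 111 sets of 5 D-V libraries examined, 1 for each named gene or list, 7 held a library that stood apart from the other 4, where chance alone gives about 1 in 20. The count is near that share, and sets overlap where a gene is also in a list, so nothing is read from it. Library D-V 3 held 5 of the 7. Hba-a2 was at 458 CPM there, against 239 to 286 CPM in the other D-V libraries, and remained above all controls in each of the 5. Chrnb4 was at 1.62 CPM in D-V 3 against 0.097 to 0.349 CPM, within the range of the controls. Htr2a was at 11 CPM in D-V 3 against 13.6 to 14.6 CPM, and Fkbp5 at 59.3 CPM against 66.4 to 68.8 CPM. The serotonin and catecholamine receptor list summed to 360 CPM in D-V 3 against 304 to 320 CPM, and its member Htr2c, which the choroid plexus expresses strongly, was at 109 CPM in D-V 3, 66.1 CPM in D-V 4 and 33.7 to 50.7 CPM in the others. D-V 3 is also the library with the highest sum of choroid plexus markers, and the part of that tissue in these values was not tested.

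Library D-V 5 held the other 2. Arc was at 224 CPM there against 122 to 144 CPM in the other D-V libraries, and the immediate early genes summed to 1800 CPM against 1480 to 1550 CPM. Control libraries spanned 116 to 220 CPM for Arc and 1424 to 1784 CPM for the sum.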

How the results depend on the processing

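In D-V against Control, edgeR called 0 genes under every alternative except 2 calls once GC and length trends were taken out and 5 without D+V libraries 2, 3 and 5 (Tpr, Ccdc88a, Arid4b, Zfp518a and Zfp994, all lower, adjusted p 0.0391), a choice made after seeing the data. DESeq2 called 3 (Cfap300 higher, Olfr1385 and Zfp994 lower), and limma voom 0. Genes at an unadjusted p under 0.05 numbered 916 in edgeR, 1624 in voom and 754 to 994 with 1 library left out, which gave 0 to 0 calls. The share of higher genes among these was 56.3%, 31.8% with upper-quartile scaling and 44.3% without Control 1, and the median of all genes moved by less than 0.03 under any scaling. In D-V against S-V, DESeq2 called 11. In D-V against D+V, upper-quartile scaling gave 1 call, DESeq2 277, limma voom 819, a surrogate variable 24, and leaving out 1 library 0 to 1230. In that comparison 773 genes were at an unadjusted p under 0.05 without the libraries rich in choroid plexus markers, and 863 without D+V 2, 3 and 5. The cause of these moves was not tested.

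Among 2053 values of named genes 12 turned direction, all of genes far from the threshold. They were Slc29a4 (−0.20 without choroid-rich libraries), Bdnf (−0.01 with voom) and, with 1 library left out, Arc (−0.35 to 0.11), Npas4 (−0.43 to 0.01), Tsc22d3 (−0.12 to 0), Bdnf (−0.16 to 0.18), Chrm1 (−0.17 to 0.04), Hrh1 (−0.05 to 0.42), Hrh2 (−0.02 to 0.31) and Hrh3 (−0.05 to 0.32). Of 294 list medians 6 moved beyond the spread between libraries and 15 took the other sign, in 5 of 14 lists. They were histamine (0.07, −0.07 to −0.02 in 3 settings), serotonin and catecholamine receptors (0.01, down to −0.05), splicing (0.01, down to −0.03), neocortex (−0.01, up to 0.02) and choroid plexus (1.71, −0.81 without choroid-rich libraries). The choroid plexus median was 0.04 with a surrogate variable and 0.07 with voom.

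Same-numbered Control and D-V libraries deviated from their group means with correlations of −0.12, −0.13 and −0.32, and none was closest to its own number. For S-V and D-V the correlations were 0.12, −0.15, −0.16, 0.22 and 0.22, with replicates 4 and 5 closest to their own number. For D+V and D-V they ran from −0.45 to 0.03, and none was closest to its own number. So few libraries cannot decide whether the numbers pair samples. With the replicate block 0 genes were called in each of the 3 comparisons, with 774, 842 and 1794 at an unadjusted p under 0.05, and the block with GC and length trends removed also gave 0. The red blood cell median was 1.13 with the block.

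With 3 controls and a median standard error of 0.123 on the log2 scale, small differences were not detectable as calls, and missing a call does not show that a gene is alike in both groups.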

Other observations

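Lists outside those described held a few genes at an unadjusted p under 0.05, named here after their values were seen. In the hypoxia and glycolysis list 3 of 30 genes (10%) were higher and 0 lower at that threshold, where all genes had 3.5% higher, and the 3 are among its 13 hypoxia genes, of which 9 were higher and 4 lower at any p. Hif1a, the oxygen-regulated transcription factor, was at 57.4, 71.3 and 71.6 CPM in Control and 80.5, 82.2, 80.1, 74 and 73.5 CPM in D-V, at 0.23 (SE 0.07). Vegfa, a growth factor for vessels, was at 25.5 to 26.8 CPM in Control and 27 to 35.7 CPM in D-V, at 0.29 (SE 0.10), and Bnip3, a mitophagy receptor, was at 0.14 (SE 0.06). The 17 glycolysis genes had 0 at that threshold and a median of −0.02. In the core clock list the 2 genes at that threshold were the paired repressors Nr1d1 (0.21, SE 0.09) and Nr1d2 (0.17, SE 0.08), both higher. Cnr1, the cannabinoid receptor of a class of interneurons, was at 150 to 162 CPM in Control and 165 to 226 CPM in D-V, with no overlap, at 0.35 (SE 0.11). Snap25, a core protein of vesicle fusion, was at 0.22 (SE 0.09), and Sv2c, a vesicle protein, at −0.36 (SE 0.11).

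Several genes that were lower in D-V than in Control also separated the D+V libraries. Zfp518a was at 8.32 to 8.85 CPM in Control, 4.6 to 5.45 CPM in D-V and 4.83 to 5.55 CPM in S-V. In D+V it was at 5.18 and 6.11 CPM in replicates 1 and 4, and at 14.6, 15.2 and 11.2 CPM in replicates 2, 3 and 5. Ccdc88a was at 35.7 to 47.6 CPM in Control, 19.1 to 27.6 CPM in D-V, 25.4 and 31.9 CPM in D+V 1 and 4, and 57.6, 56.8 and 58.5 CPM in D+V 2, 3 and 5. In the header of the deposited table the D+V columns stand in the order 1, 4, 2, 3, 5, and those of the other groups in order of number. What this order records is not given in the sources used here.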
